A study of Mus musculus with 3 samples.

Results

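The matrix metalloproteinases (MMP), the ADAMTS proteases, the ADAMTS-like proteins (ADAMTSL) and the tissue inhibitors of metalloproteinases (TIMP) were examined in mouse chondrocytes, the cells that make cartilage. Members were chosen by gene symbol alone, as every row of the count table named Mmp, Adamts, Adamtsl or Timp with a number, and 51 of the 44788 rows met this rule. These were 23 Mmp genes, 19 Adamts genes, 5 Adamtsl genes and 4 Timp genes.

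The study measured RNA in primary chondrocytes taken from cartilage of the knee joint in C57BL/6 mice. The cKO group (2 libraries) carried Col2a1-CreERT2, a tamoxifen-activated recombinase driven by the type II collagen promoter of chondrocytes, together with floxed Kdm6b (genotype Col2a1-CreERT2;Kdm6bf/f). The control group (1 library) carried the floxed alleles without the recombinase (Kdm6bf/f). Cells of both groups were cultured with serum and received 4-hydroxytamoxifen at 1 µM for 48 h. The groups therefore differ in the recombinase itself as well as in any deletion of Kdm6b, and the age of the animals is not stated in the labels. Kdm6b encodes a demethylase that takes repressive methyl marks off histone H3, and the comparison asked which transcripts differ where it was targeted.

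Cartilage is mostly extracellular matrix, and its turnover depends on these proteases. MMPs are zinc-dependent enzymes, made as inactive precursors, that cut collagens and other matrix proteins, and several ADAMTS enzymes cut aggrecan, the proteoglycan that lets cartilage resist compression. ADAMTSL proteins share the non-catalytic domains of the ADAMTS enzymes but have no protease activity, and TIMPs bind the active site of the proteases and block it.

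Depth was alike, with 12577419 and 12636471 counts in the cKO libraries (replicates 1 and 2), against 12489738 in the control, and 15529 genes were tested. Kdm6b had 1049 and 948 counts in the cKO libraries, against 1289 in the control. The log2 change of -0.39 ± 0.14 (SE) was not called by edgeR's quasi-likelihood test (adjusted p = 0.138). These gene-level counts do not show whether or where the gene was recombined. Kdm6a, the related X-linked demethylase, had 25.1 and 38.2 CPM in cKO, against 30.7 CPM in the control (edgeR adjusted p = 0.957). The cKO libraries were not alike in sex-linked RNA. Xist gave 10081 counts in cKO replicate 2, but 2 counts in replicate 1 and 1 count in the control, and the Y-linked genes Ddx3y, Eif2s3y, Kdm5d and Uty had 0 counts in cKO replicate 2 alone. Values are therefore given for each cKO library, and cKO replicate 1 is the one that matches the control in these transcripts. Chondrocyte markers were abundant in all 3 libraries, with a summed level of 15501 and 14522 CPM in cKO, against 26285 CPM in the control. Of the 10 tested, 9 fell in cKO and 0 rose. Most of each sum came from Col2a1, the marker that edgeR did not call (adjusted p = 0.283). It had 12527 and 11985 CPM in cKO, against 20116 CPM in the control. All 24 listed interferon-stimulated genes rose, with a summed level of 4204 and 4067 CPM in cKO, against 299 CPM in the control, where CPM scales counts to library size with edgeR's TMM factors. The part of either list in the results below was not tested.

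The sequences that follow are the promoter windows of 4 members, taken from RefSeq on GRCm38.p6, from 250 bases before the gene's start to 50 after it. Timp1 and Adamts9 are shown because they were the members that passed the test between cKO and control. Mmp13 and Mmp3 are shown because they were the members of a chromosome 9 gene cluster with more than 10 counts. Letters are written 5′ to 3′ on the gene's strand, and capitals mark the motifs searched on both strands. These were the AP-1 motif TGANTCA, the Runx motif TGTGGT and the core of the interferon-stimulated response element, GAAANNGAAA, and no marked motif overlaps another.
Timp1, chrX:20869916-20870215, plus strand: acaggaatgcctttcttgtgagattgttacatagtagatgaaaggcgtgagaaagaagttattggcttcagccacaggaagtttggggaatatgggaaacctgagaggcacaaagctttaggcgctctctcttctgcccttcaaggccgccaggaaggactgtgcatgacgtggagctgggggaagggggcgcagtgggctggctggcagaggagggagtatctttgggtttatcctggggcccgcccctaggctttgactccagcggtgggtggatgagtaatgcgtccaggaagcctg
Adamts9, chr6:92943485-92943784, minus strand: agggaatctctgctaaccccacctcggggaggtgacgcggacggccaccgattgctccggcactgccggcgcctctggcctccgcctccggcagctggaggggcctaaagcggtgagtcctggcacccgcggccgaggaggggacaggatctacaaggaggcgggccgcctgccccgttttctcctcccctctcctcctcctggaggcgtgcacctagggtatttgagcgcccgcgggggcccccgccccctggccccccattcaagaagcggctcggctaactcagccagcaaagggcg
Mmp13, chr9:7272264-7272563, plus strand: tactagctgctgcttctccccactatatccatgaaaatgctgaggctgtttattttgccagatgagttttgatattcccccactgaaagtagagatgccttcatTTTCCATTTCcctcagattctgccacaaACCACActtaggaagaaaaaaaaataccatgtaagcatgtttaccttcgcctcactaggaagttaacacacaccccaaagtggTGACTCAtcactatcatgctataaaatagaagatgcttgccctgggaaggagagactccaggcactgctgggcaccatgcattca
Mmp3, chr9:7445572-7445871, plus strand: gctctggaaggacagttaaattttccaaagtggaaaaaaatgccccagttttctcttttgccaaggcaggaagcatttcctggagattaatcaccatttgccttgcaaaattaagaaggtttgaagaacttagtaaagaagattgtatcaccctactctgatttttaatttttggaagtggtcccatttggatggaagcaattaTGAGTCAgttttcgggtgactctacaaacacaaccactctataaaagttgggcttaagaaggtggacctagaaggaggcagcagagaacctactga

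The windows of Timp1 and Adamts9 held none of the 3 motifs as spelled. Spellings 1 base away were not counted, such as tgagtaa (Timp1) and tgagtcc (Adamts9) beside the AP-1 letters. The windows are therefore not shown to lack such sites. The Mmp13 window held the AP-1 letters from 35 bases before the start, the Runx letters from 118 bases before it and the response element letters from 146 bases before it. The Mmp3 window held the AP-1 letters from 46 bases before the start. A window was found for 36 of the 51 members. The AP-1 letters stood in a window of 8 of these 36 genes, against 7.81% of all 32851 windows of this length. Members were counted by gene, with a match in any window of the gene, while the share over all is by window. Mmp7, Mmp12 and Mmp23 had more than 1 window, so these shares are not in the same unit. All 8 lie in the chromosome 9 cluster, which has 10 genes, and 0 of the other 26 members with a window held these letters. The Runx letters stood in 6 of the 36, against 16.8% of all windows, and the response element letters in 1 of the 36, against 3.44%. A match of letters describes the window and does not show binding.

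Transcripts of the inhibitors far exceeded those of the proteases in every library. The 4 Timp genes took 1.16% and 1.13% of all counts in cKO, against 0.986% in the control (Wilson 95% intervals 1.15 to 1.16, 1.13 to 1.14 and 0.980 to 0.991). The 23 Mmp genes took 0.131% and 0.125% in cKO, against 0.129% in the control, and the 19 Adamts genes took 0.0548% and 0.0503% in cKO, against 0.0490% in the control. Because longer transcripts collect more reads, levels of different genes were compared as CPM divided by kilobases of exon. Per kilobase, the summed Timp level was 9.26 and 10.2 times the summed Mmp level in cKO and 6.81 times in the control. This difference between the groups was not tested.

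**Figure D1:**
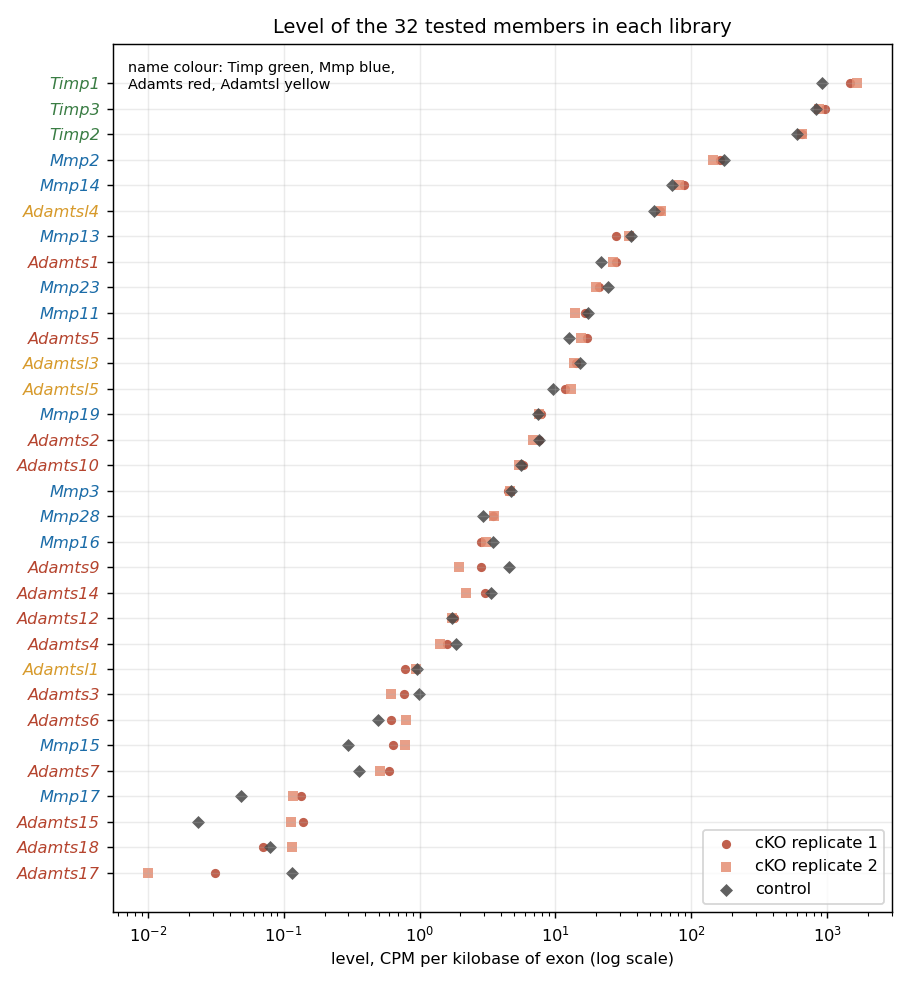
Level of each of the 32 tested members, as CPM per kilobase of exon on a log scale, in cKO replicate 1 (circles), cKO replicate 2 (squares) and the control (diamonds), with genes ordered by their mean. Timp1, Timp3 and Timp2 lie above every protease, Mmp2 and Mmp14 lead the proteases, and for most members the 3 libraries lie close together.

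Timp1, Timp3 and Timp2 held ranks 9, 21 and 32 among the 14150 tested genes with a known exon length. Timp3, the inhibitor that binds to matrix and acts on ADAMTS enzymes as well as MMPs, had the most reads, with 97112 and 91586 counts in cKO, against 84145 in the control. Its exons sum to 8144 bases, against 888 for Timp1, so per kilobase Timp1 stood first. Timp1 reached 1485 and 1660 CPM per kilobase in the cKO libraries, against 917 in the control, and Timp3 reached 957 and 879 in cKO, against 833 in the control. The order of Timp1 and Timp3 rests on these annotated lengths, and in the control they lay close together. Timp2, which blocks MMPs and also helps to activate Mmp2, followed at 658 and 651 CPM per kilobase in cKO, against 597 in the control. Timp4 had 5 and 3 counts in cKO, against 3 in the control, too few for the main test.

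Timp1 was the only member called higher in cKO. It had 16419 and 18868 counts in the cKO libraries, against 10104 in the control, which is 1318 and 1474 CPM against 814 CPM. Both cKO libraries lay above the control, and they differed from each other by far less than either did from it. The mean of 1396 ± 110 CPM (SD, n = 2) was 1.71-fold that of the control, a log2 change of 0.78 ± 0.17 (SE), which edgeR called at an adjusted p of 0.00753. The ratio to the control was 1.62 (exact 95% counting interval 1.58 to 1.66) for cKO replicate 1 and 1.81 (1.77 to 1.85) for cKO replicate 2. These intervals cover counting error alone. In bulk RNA, a larger share of cells that express a gene and more RNA per cell cannot be told apart.

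Timp1 (ENSMUSG00000001131.11) is on the X chromosome (20870166 to 20874735, plus strand, GRCm38), inside the span of Syn1 and with no exon in common. Syn1 had 65 and 46 counts in cKO, against 21 in the control, so its reads are few beside those of Timp1. The sex-linked difference between the cKO libraries touches this gene's chromosome. In cKO replicate 1, which matched the control in Xist and Y-linked counts, the log2 difference from the control was 0.69, and in cKO replicate 2 it was 0.86. Timp1 also passed in DESeq2 (adjusted p = 0.000292) and limma-voom (adjusted p = 0.000747). It did not pass with edgeR's prior degrees of freedom set to 3 (adjusted p = 0.386) or with no filter on low counts (adjusted p = 0.560). With no filter, 0 of all genes passed, so that setting says nothing particular to Timp1.

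The other inhibitors did not pass. Timp3 had 7797 and 7156 CPM in cKO, against 6782 CPM in the control, a log2 change of 0.14 ± 0.27 (SE, with edgeR adjusted p = 0.874). Timp2 had 2565 and 2536 CPM in cKO, against 2325 CPM in the control, a log2 change of 0.13 ± 0.19 (SE, with edgeR adjusted p = 0.828). Their cKO libraries lay above the control, by amounts within the SE. Timp3 exons overlap those of Syn3 on the opposite strand, which had 10 and 9 counts in cKO, against 3 in the control. Per kilobase, Timp1 made up 47.9% and 52.0% of the summed Timp level in cKO, against 39.1% in the control.

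**Figure D2:**
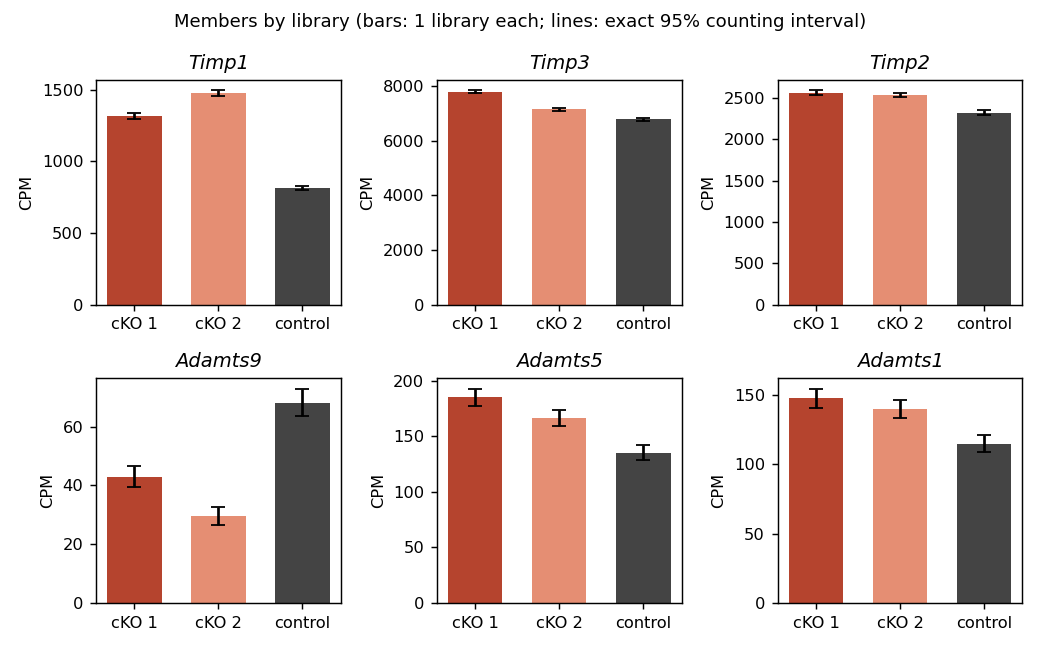
CPM of 6 members in cKO replicate 1, cKO replicate 2 and the control, with exact 95% counting intervals as lines on the bars. Timp1 stands at 1318 and 1474 CPM in cKO against 814 in the control, and Adamts9 at 43.0 and 29.5 CPM in cKO against 68.1 in the control, while Timp3, Timp2, Adamts5 and Adamts1 are higher in both cKO libraries by smaller amounts.

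Adamts9 was the only member called lower in cKO. The enzyme cuts the proteoglycans versican and aggrecan. It had 535 and 377 counts in the cKO libraries, against 845 in the control, which is 43.0 and 29.5 CPM against 68.1 CPM. Both cKO libraries lay below the control, but they also lay apart from each other, by 0.54 on the log2 scale. The mean of 36.2 ± 9.55 CPM (SD, n = 2) gave a log2 change of -0.91 ± 0.18 (SE), which edgeR called at an adjusted p of 0.00228. Against the control, the ratio was 0.631 in cKO replicate 1 (exact 95% counting interval 0.565 to 0.704) and 0.432 in cKO replicate 2 (0.382 to 0.489).

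Adamts9 passed in limma-voom (adjusted p = 0.000660) but not in DESeq2 (adjusted p = 0.0635). In edgeR it did not pass with prior degrees of freedom of 3 (adjusted p = 0.527) or with no filter (adjusted p = 0.560), where 0 of all genes passed. The gene (ENSMUSG00000030022.14) lies on chromosome 6 (92772699 to 92943492, minus strand, GRCm38), and 2 annotated genes on the opposite strand overlap its exons. One of them, A730049H05Rik, had 0 counts in each library, and the other was not analysed here. Adamts9 made up 4.08% and 3.08% of the summed Adamts level per kilobase in cKO, against 7.44% in the control.

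Over the families together, 32 of the 51 members had enough counts to be tested in the main fit. Of these, 1 rose, 1 fell and 30 did not pass. The 2 members called are 6.25% of those tested, beside 4.91% of all 15529 tested genes called in either direction, so the share is near the background. Of all tested genes, 3.01% were called higher and 1.9% lower. At an unadjusted p under 0.05 in edgeR stood 8 of the 32 tested members and 2431 of all 15529 genes. Counts at that level for families and lists below are to be read beside this share. The median log2 fold change was 0.04 over the tested members and -0.00223 over all tested genes, and 23 of the 30 members that did not pass differed by less than 0.4 on the log2 scale. Of the 24 members whose CPM averaged 5 or more, 0 were at least 2-fold higher or lower than the control in both cKO libraries, beside 1.61% and 0.494% of the 11339 genes at that level. Of the 32 tested, 2 reached the filter's level in cKO alone (Adamts15 and Mmp17) and 1 in the control alone (Adamts17). For these 3 genes, a difference was a condition of being tested. With libraries this few, a member that did not pass is not shown to be unchanged.

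**Figure D3:**
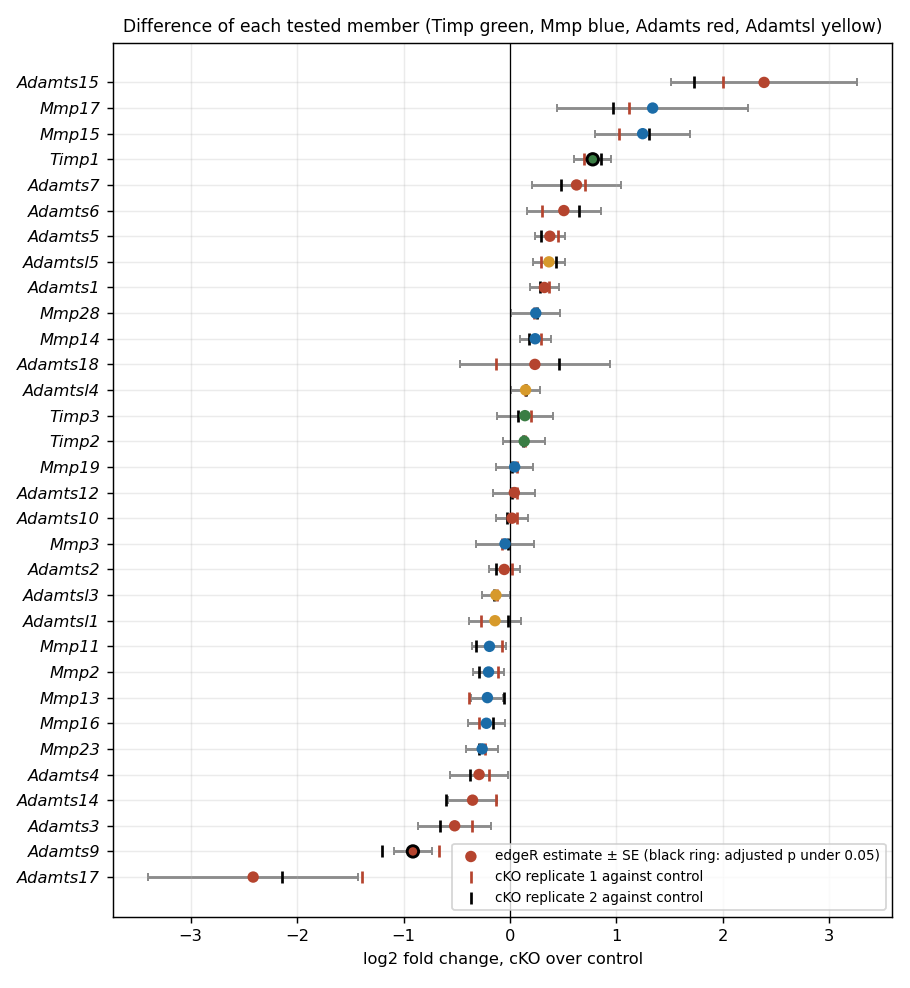
Log2 fold change of cKO over control for the 32 tested members, with the edgeR estimate and its SE, and ticks for cKO replicate 1 (red) and cKO replicate 2 (black) against the control. Black rings mark Timp1 at 0.78 and Adamts9 at -0.91, the members past the threshold, and the widest error lines belong to the genes with the fewest counts.

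Among the aggrecanases, Adamts5 was the more abundant and Adamts4 the scarcer. Adamts5, the main aggrecanase of mouse cartilage, had 2304 and 2125 counts in cKO, against 1679 in the control, or 185 and 166 CPM against 135 CPM. The difference was 0.37 ± 0.14 on the log2 scale (SE, with edgeR adjusted p = 0.157), so it did not pass, although both cKO libraries lay above the control. Adamts4, the other classical aggrecanase, had 96 and 87 counts in cKO, against 110 in the control, with a log2 change of -0.29 ± 0.28 (SE, with edgeR adjusted p = 0.696). Per kilobase, Adamts5 stood at 10.7 and 10.9 times Adamts4 in cKO and 6.80 times in the control. Adamts4 exons overlap annotated exons on the opposite strand, so its counts are uncertain.

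Adamts1, another enzyme that cuts aggrecan and versican, lies 53.1 kb from Adamts5 on chromosome 16. It was the most abundant Adamts gene per kilobase, at 27.9 and 26.3 CPM per kilobase in cKO, against 21.7 in the control. Its log2 fold change of 0.32 ± 0.14 (SE, with edgeR adjusted p = 0.237) was close to that of its neighbour and did not pass either. Together, Adamts1 and Adamts5 made up 64.3% and 65.7% of the summed Adamts level per kilobase in cKO, against 56.2% in the control.

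The enzymes that trim procollagen, Adamts2, Adamts3 and Adamts14, did not pass. Adamts2 had 888 and 819 counts in cKO, against 871 in the control, so the control lay between the cKO libraries once depth was taken into account. Adamts3 and Adamts14 had log2 changes of -0.52 ± 0.34 and -0.35 ± 0.23 (SE, with edgeR adjusted p = 0.525 and 0.519). For Adamts14 most of that came from cKO replicate 2, at 146 counts, while cKO replicate 1 had 198 and the control 216.

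Adamts7 and Adamts12, which cut the cartilage protein COMP, had log2 changes of 0.63 ± 0.42 and 0.04 ± 0.20 (SE, with edgeR adjusted p = 0.533 and 0.958). Adamts7 exons overlap those of Tbc1d2b on the opposite strand, so its counts of 47 and 41 in cKO, against 28 in the control, are uncertain. Adamts10 and Adamts6, related enzymes that act on fibrillin microfibrils, had log2 changes of 0.02 ± 0.15 and 0.51 ± 0.35 (SE, with edgeR adjusted p = 0.978 and 0.546).

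Some Adamts genes had large estimates on few reads. Adamts15 had 18 and 15 counts in cKO, against 3 in the control, a ratio of 5.40 with an exact 95% counting interval of 1.70 to 27.5 and an adjusted p of 0.149 in edgeR. Adamts17 had 3 and 1 counts in cKO, against 11 in the control, at an edgeR adjusted p of 0.215. Adamts18 had 9 and 15 counts in cKO, against 10 in the control. Adamts8, Adamts16, Adamts19 and Adamts20 had at most 2 counts in any library, and Adamts13, the enzyme that trims von Willebrand factor in blood, had 0 in all 3.

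Of the 11 tested Mmp genes, 0 passed in edgeR, DESeq2 or limma-voom, while 1 had an unadjusted p under 0.05 in edgeR. DESeq2 gave no adjusted p for Mmp17. Mmp2, a gelatinase, and Mmp14, the membrane-bound collagenase that activates it, made up 74.6% and 71.6% of the summed Mmp level per kilobase in cKO, against 71.8% in the control. Mmp2 had 6802 and 6187 counts in cKO, against 7343 in the control, a log2 change of -0.20 ± 0.15 (SE, with edgeR adjusted p = 0.576). Mmp14 had 6520 and 6221 counts in cKO, against 5316 in the control, a log2 change of 0.24 ± 0.14 (SE, with edgeR adjusted p = 0.478). Both cKO libraries lay below the control for Mmp2 and above it for Mmp14. The level of Mmp14 per kilobase was 0.542 and 0.569 of that of Mmp2 in cKO, against 0.409 in the control.

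Mmp13 is the collagenase that cuts type II collagen, and hypertrophic chondrocytes are known to express it. It had 925 and 1194 counts in cKO, against 1204 in the control, or 74.3 and 93.3 CPM against 97.0 CPM. The lower value came from cKO replicate 1, while cKO replicate 2 lay close to the control. Its log2 fold change was -0.21 ± 0.15 (SE, with edgeR adjusted p = 0.562). Mmp3, a stromelysin that activates other MMPs, had 100 and 107 counts in cKO, against 105 in the control, a log2 change of -0.05 ± 0.27 (SE, with edgeR adjusted p = 0.966).

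Mmp13 and Mmp3 belong to a cluster of 10 Mmp genes on chromosome 9, between 7272514 and 7699585 (GRCm38), which spans 427 kb. They were the only cluster genes tested. Mmp10 had 1 and 6 counts in cKO, against 2 in the control, Mmp20 had 1 count in cKO replicate 1 alone and Mmp27 had 1 in the control alone. Mmp12, Mmp1b, Mmp1a, Mmp8 and Mmp7 had 0 counts in each library. These include the elastase of macrophages (Mmp12), the collagenase of neutrophils (Mmp8) and the mouse relatives of the human interstitial collagenase (Mmp1a and Mmp1b). A count of 0 allows a level of up to 0.241 and 0.234 CPM in the cKO libraries, and of up to 0.242 CPM in the control. The AP-1 letters thus stood in windows of cluster genes with 0 counts as well as in those of Mmp13 and Mmp3 printed above.

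**Figure D4:**
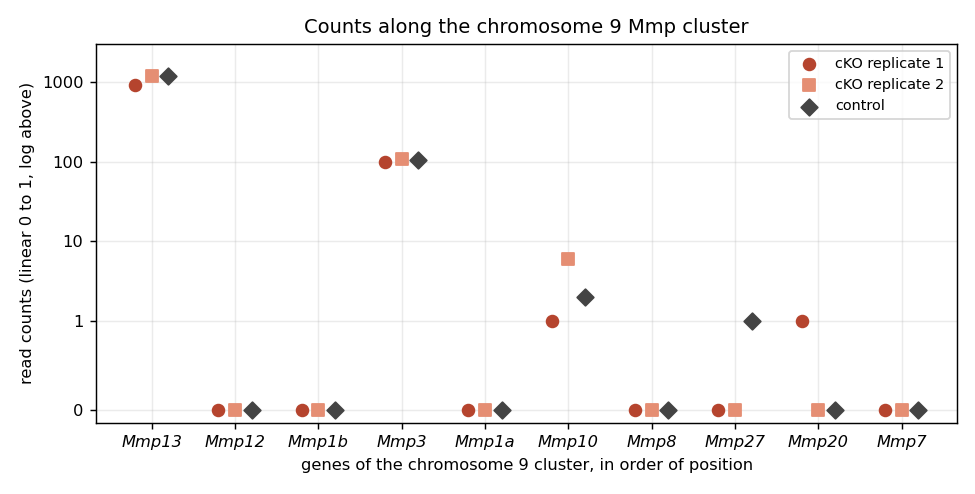
Read counts of the 10 Mmp genes of the chromosome 9 cluster, in order of position, in cKO replicate 1 (circles), cKO replicate 2 (squares) and the control (diamonds), on an axis that is linear from 0 to 1 and logarithmic above. Mmp13, at 925 and 1194 counts in cKO, against 1204 in the control, and Mmp3, at 100 and 107 in cKO, against 105 in the control, stand apart from 8 genes with at most 6 counts.

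The membrane-type MMPs other than Mmp14 had fewer reads than Mmp14, and of these Mmp16 had the most. Mmp15 had 43 and 54 counts in cKO, against 20 in the control, so both cKO libraries lay above the control. Its log2 fold change of 1.25 ± 0.45 (SE) had an unadjusted p of 0.0111 and an adjusted p of 0.139 in edgeR, so it did not pass. Mmp16 had 305 and 343 counts in cKO, against 371 in the control, a log2 change of -0.22 ± 0.18 (SE, with edgeR adjusted p = 0.617). Mmp17 had 11 and 10 counts in cKO, against 4 in the control. Mmp24 had 4 and 5 counts in cKO, against 2 in the control. Mmp25 had 1 and 4 counts in cKO, against 0 in the control. Both had too few for the main test.

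The remaining MMPs did not pass either. Mmp23, an MMP with an unusual membrane anchor at its start, had 609 and 600 counts in cKO, against 712 in the control, a log2 change of -0.26 ± 0.15 (SE, with edgeR adjusted p = 0.431). Mmp11, a stromelysin activated inside the cell, had 575 and 496 counts in cKO, against 602 in the control. Exons on the opposite strand overlap those of Mmp11 (Chchd10), Mmp19 (Tmem198b) and Mmp24 (BC029722), so the counts of these 3 are uncertain. Mmp19 and Mmp28 had log2 changes of 0.04 ± 0.18 and 0.24 ± 0.23 (SE, with edgeR adjusted p = 0.946 and 0.698). Mmp9, the gelatinase of osteoclasts and leukocytes, had 9 and 3 counts in cKO, against 1 in the control, a ratio of 5.90 with an exact 95% counting interval of 0.872 to 252. The interval includes a ratio of 1, so no difference was detectable at this depth. Mmp21 had 0 counts in each library.

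Of the 4 tested Adamtsl genes, 0 passed in edgeR, DESeq2 or limma-voom, while 1, Adamtsl5, had an unadjusted p under 0.05 in edgeR. Adamtsl4, which binds fibrillin microfibrils, was the most abundant, with 3084 and 3201 counts in cKO, against 2789 in the control, a log2 change of 0.15 ± 0.13 (SE, with edgeR adjusted p = 0.682). Per kilobase it stood at 59.0 and 59.6 CPM in cKO, against 53.5 CPM in the control, above every Adamts protease. Adamtsl5 had 692 and 786 counts in cKO, against 563 in the control, a log2 change of 0.37 ± 0.15 (SE, with edgeR adjusted p = 0.230). Adamtsl3 had 1359 and 1370 counts in cKO, against 1469 in the control, Adamtsl1 had 125 and 154 in cKO, against 151 in the control, and Adamtsl2 had at most 1 count in a library.

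**Figure D5:**
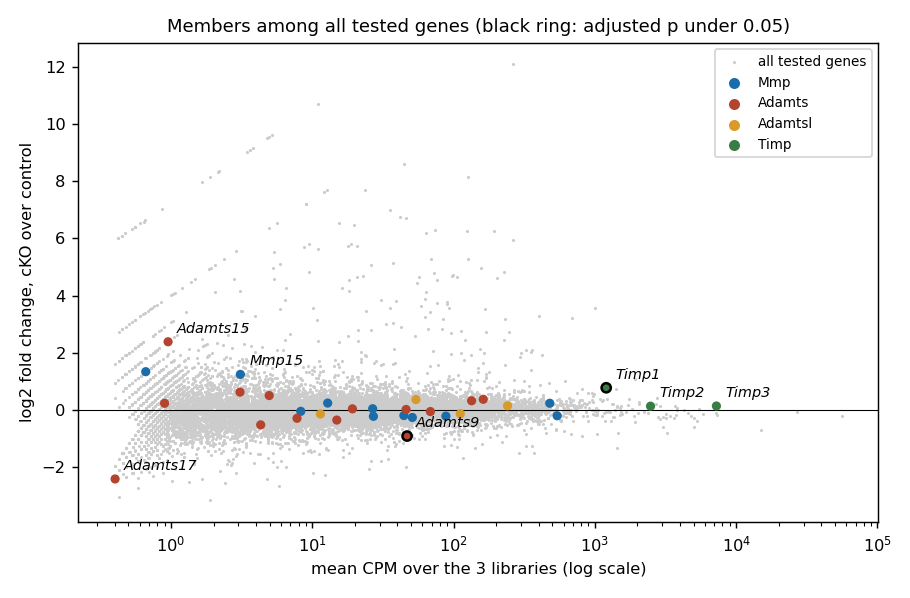
Log2 fold change of cKO over control against mean CPM over the 3 libraries for all 15529 tested genes (grey) and the members (coloured by family). Most members lie in the dense band around 0, Timp1 and Adamts9 are ringed as called, and Adamts15 and Adamts17 lie at the low-count end.

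Genes that act with these families were read from lists chosen by known role. Of 20 tested genes that activate, inhibit or clear the proteases, 1 rose and 2 fell. A2m, a broad protease trap, fell to 26.7 and 16.6 CPM in cKO, against 57.5 CPM in the control (log2 -1.41 ± 0.20 SE, with edgeR adjusted p = 5.30e-05). Htra1, a serine protease of cartilage, fell by 0.54 ± 0.13 on the log2 scale (SE, with edgeR adjusted p = 0.0186), and in DESeq2 it did not pass (adjusted p = 0.107).

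Of 14 tested genes of the ADAM, astacin and pappalysin families, 0 passed in edgeR and DESeq2 called 0. In edgeR, 5 had an unadjusted p under 0.05, beside 2431 of all 15529 tested genes. The smallest p-values were those of Adam19, Adam22 and Adam8, which encode membrane-bound ADAM proteins. Adam19 had 52.7 and 39.5 CPM in cKO, against 32.7 CPM in the control (edgeR adjusted p = 0.146), and the log2 changes of Adam22 and Adam8 were -0.77 ± 0.29 and 0.43 ± 0.18 (SE, with edgeR adjusted p = 0.165 and 0.224).

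Of 28 tested substrates of the proteases, 0 rose and 9 fell. Acan, the aggrecan gene, fell to 995 and 901 CPM in cKO, against 2400 CPM in the control, and Comp fell to 940 and 710 CPM in cKO, against 1469 CPM in the control. Fbn2, which encodes a fibrillin of microfibrils, fell by 0.62 ± 0.13 on the log2 scale (SE, with edgeR adjusted p = 0.00647). The other 6 were the matrilins Matn1 and Matn3, the collagens Col9a1 and Col11a1, and the small proteoglycans Dcn and Lum. Their log2 fold changes ran between -1.99 for Matn1 and -0.82 for Col11a1. DESeq2 also called 9 lower, with Col2a1 (adjusted p = 0.000664) in place of Matn3 (adjusted p = 0.0664). Several of these substrates are also chondrocyte markers.

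Of 28 tested upstream regulators, 4 rose and 1 fell. The AP-1 subunits Fosl1 and Junb rose, Fosl1 to 38.1 and 49.8 CPM in cKO against 21.8 CPM in the control, and Junb to 74.8 and 92.1 CPM in cKO against 54.4 CPM in the control. Irf1, an interferon-response factor, rose to 24.2 and 30.2 CPM in cKO against 13.4 CPM in the control (edgeR adjusted p = 0.00327). Sox9, the main transcription factor of chondrocytes, fell by 0.58 ± 0.13 on the log2 scale (SE, with edgeR adjusted p = 0.00876). In DESeq2 Fosl1 passed (adjusted p = 0.0243), and Irf1, Junb and Sox9 did not (adjusted p = 0.0823, 0.245 and 0.0656). Il1a, Il1b and Tnf, cytokine genes known to induce MMPs and aggrecanases, had 0 counts in each library, and they are named here after their values were seen.

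Markers of other cells that make these proteases were read as whole lists. Of 10 tested markers of synovial and other fibroblasts, 3 rose in edgeR (Cd55, Thy1 and Prg4) and 0 fell. DESeq2 called Cd55 alone. The summed level of the list was 13203 and 11806 CPM in cKO, against 13119 CPM in the control. Most of each sum came from Col1a1 and Col3a1, which edgeR did not call (adjusted p = 0.966 and 0.652). Col1a1 had 7068 and 6950 CPM in cKO, against 6795 CPM in the control. Col3a1 had 5244 and 4106 CPM in cKO, against 5688 CPM in the control. The sum therefore says little about the other markers of the list. Timp1, Mmp2, Mmp14 and Adamts5 are also fibroblast genes, and the part of fibroblasts in their values was not tested. Of 4 tested macrophage and leukocyte markers, 0 passed in edgeR or DESeq2 and 2 had an unadjusted p under 0.05. The 13 markers in the table summed to 12.8 and 13.0 CPM in cKO, against 8.0 CPM in the control, and Itgam, Tyrobp, Cd3e and Mpo had 0 counts in each library. Osteoclast markers summed to 87.5 and 85.7 CPM in cKO, against 86.3 CPM in the control, of which Ctsk, also expressed outside osteoclasts, gave 83.6 and 81.3 CPM in cKO, against 82.1 CPM in the control. Ocstamp, Dcstamp, Calcr and Atp6v0d2 had 0 counts in each library.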

How the data were processed

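The deposited table holds whole-number read counts per gene, made by the authors from Ion Proton sequencing of rRNA-depleted RNA. The submitters' processing notes name GRCm38 and GRCh37 without a role. The aligner, the strand setting and the annotation were not given in the sources used for this text, so overlapping genes are named as uncertain.

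Counts were tested with edgeR 4.0.16 in R 4.3.3 (filterByExpr, TMM, quasi-likelihood test with the newer dispersion method, Benjamini-Hochberg adjustment over 15529 genes, threshold 0.05). With 2 cKO libraries and 1 control there is 1 residual degree of freedom, so replicate spread comes only from the cKO libraries. The test draws each gene's variance toward a level shared over genes, which carries 19.9 prior degrees of freedom. The p-values therefore rest mostly on that shared level, and spread between controls was not measured. The labels do not say that the cKO libraries came from separate animals, though their Xist and Y-linked counts, given above, differ as between a female and a male. Between the cKO libraries, counts differed by more than sampling noise. DESeq2 1.42.0 and limma-voom (limma 3.58.1) were alternatives. Exon lengths came from GENCODE on GRCm38. Intervals cover counting error only, and a count of 0 was read as up to 3 counts. Per-library log2 differences used a prior count of 2.

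Members, partner lists, marker lists and the list of interferon-stimulated genes were chosen with earlier results of these data known. The share of the interferon list that rose is therefore not an independent finding. Values in full were given for called members, the most abundant members of each family and known cartilage proteases, and partner genes were named where called or among the 3 smallest p-values. Some genes counted in these lists are not reported here by name.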

Additional observations from a re-analysis of the deposited data

How the results depend on the processing

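No paired analysis was possible because the control is 1 library, so the groups share fewer than 2 replicate numbers. Without a filter on low counts, 0 members, 0 partner genes and 0 of all genes passed in either direction, although 6 of 44 members and 1829 of 24051 genes had an unadjusted p under 0.05. With edgeR's prior degrees of freedom set to 3, 0 members passed, with 4 at an unadjusted p under 0.05, while 83 genes passed higher and 4 lower, among them 1 partner gene in each direction. DESeq2 called 227 genes higher and 83 lower, against 467 and 295 in edgeR, with 3 partner genes higher, against 5 in edgeR, and 0 members lower. The cause of these differences was not tested. Leaving out a cKO library leaves 1 library against 1, so no calls were made. Median log2 fold changes then lay between -0.0084 and 0.044 for Adamts, 0.011 and 0.069 for Adamtsl, -0.07 and -0.02 for Mmp, and 0.13 and 0.20 for Timp. With no filter the medians were -0.017 for Adamts, -0.13 for Adamtsl, 0.24 for Mmp and 0.26 for Timp, with genes of very few counts included. At 1.5-fold in both cKO libraries, 1 member was higher (Timp1) and 1 lower (Adamts9). At a mean CPM of at least 1, 1 member was at least 2-fold higher (Mmp15). Leaving out either cKO library gave 0 to 1 members at least 2-fold lower, with Adamts9 past this fold without cKO replicate 1. For the 32 tested members, refits gave 190 adjusted p-values, of which 185 stayed on the same side of the threshold. The call was lost in 5 (Timp1 and Adamts9, as above) and gained in 0, and 0 refits changed a sign. Most of these refits are of the 30 members not called in the main fit. The 185 therefore says little about how stable the calls of Timp1 and Adamts9 are. Without one cKO library, 3 of 64 values changed sign, all of members that were not called (Adamts10, Adamts2 and Adamts18). The 19 members with at most 9 counts did not reach the filter of the main fit, and the 7 of them at 0 in all libraries were tested in no fit.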

Other observations

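Of 5 tested osteoblast markers, 1 fell in edgeR, Ibsp, a bone matrix protein, with 120 and 156 counts in cKO, against 239 in the control (log2 -0.82 ± 0.22 SE, adjusted p = 0.0361), and in DESeq2 it did not pass (adjusted p = 0.674). Of 3 tested endothelial markers, 0 passed in edgeR or DESeq2 and 1 had an unadjusted p under 0.05, with Cdh5 and Emcn at 0 counts in each library. Of 7 tested mural markers, 0 passed in edgeR or DESeq2 and 1 had an unadjusted p under 0.05. Their summed level was 1347 and 1562 CPM in cKO, against 1315 CPM in the control. Of 2 tested skeletal muscle markers, 0 passed in edgeR or DESeq2 and 0 had an unadjusted p under 0.05.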
